A study of Oryza sativa with 35 samples.

Results

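OSHB1, OSHB2, OSHB3 and OSHB4 are rice genes of class III of the homeodomain-leucine zipper (HD-ZIP III) transcription factors. They were taken by locus identifier, LOC_Os03g01890, LOC_Os10g33960, LOC_Os12g41860 and LOC_Os03g43930 in that order, by a rule that uses no measured value. They are 4 of the 55801 loci in the deposited count table, and all 4 were among the 7406 loci that passed the filter on low counts and were tested. A RefSeq gene table of rice lists the same genes as HOX10, HOX9, HOX33 and HOX32. HD-ZIP III proteins bind DNA through a homeodomain and a leucine zipper and carry a START domain. In flowering plants they promote the upper (adaxial) side of lateral organs, the formation of shoot meristems and the patterning of vascular tissue, and their transcripts are cleaved under guidance of the microRNA miR166. In rice, raised expression of OSHB4 is known to give rolled leaves, and reduced expression of OSHB3 is known to hasten leaf ageing.

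The transcripts were counted in inflorescence meristems, from which panicle branches and spikelets arise. The assay was CEL-Seq2, which sequences the 3′ ends of transcripts and counts each molecule once by its random barcode, or UMI. Koshihikari, a japonica cultivar, gave 16 libraries, with 5, 5, 3 and 3 from tissue coded R1, R2, R4 and R5. NIL-Gn1, by its name a near-isogenic line for the grain number locus Gn1, gave 19, with 8, 8, 1 and 2 from the same codes. Neither the meaning of the codes nor the allele at Gn1 is given by the labels. All plants of both lines were grown in chambers at 70% humidity with 10 h days at 27 °C and 14 h nights at 25 °C. The light level was given as 100 µmol for all. Each library was made from 100 pg of RNA with 11 to 15 PCR cycles. Whether libraries of 1 group are from different plants is not stated, so p-values measure the spread between libraries, which may be technical.

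Libraries held 76743 to 375071 UMIs, with a median of 133163. At R1 and R2 Koshihikari libraries were shallower (median 108508.5 UMIs) than those of NIL-Gn1 (median 164374.5). Of the meristem genes, the KNOX homeobox gene OSH1 averaged 195 to 339 CPM (UMIs scaled to a common library total) in the 8 groups and RFL, the rice LEAFY homologue, 88.3 to 209. None of the 8 floral organ genes listed passed the filter, and OsMADS3, OsMADS58 and FON2 had 0 UMIs in all libraries. On the principal components of all tested loci, Koshihikari R2 replicate 1 stood apart from the rest on the second component, and replicates 4 and 5 of that group on the fourth. Each test of the HD-ZIP III genes that uses Koshihikari R2 is also given without these 3 libraries, which leaves replicates 2 and 3. NIL-Gn1 R5 replicate 2, the shallowest library with 76743 UMIs, was lowest on the third component, at -38.5, where the next was at -20.8. It was left out only among the fits that leave out each library in turn.

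OSHB4 was the most abundant of the 4 genes, with more UMIs than any of the other 3 in 35 of 35 libraries. Levels are CPM over the tested loci, scaled with TMM factors. Because CEL-Seq2 counts the 3′ end of a transcript, no length scaling was applied, and levels of different genes are compared on that scale. Over all libraries the mean level was 647 CPM for OSHB4, 248 for OSHB3, 172 for OSHB1 and 151 for OSHB2, which placed them at ranks 187, 730, 1196 and 1429 of the 7406 tested loci. They rested on 3094, 1226, 879 and 745 UMIs in all, so a single library gave OSHB2 at most 58 UMIs and OSHB4 at most 198.

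**Figure D1:**
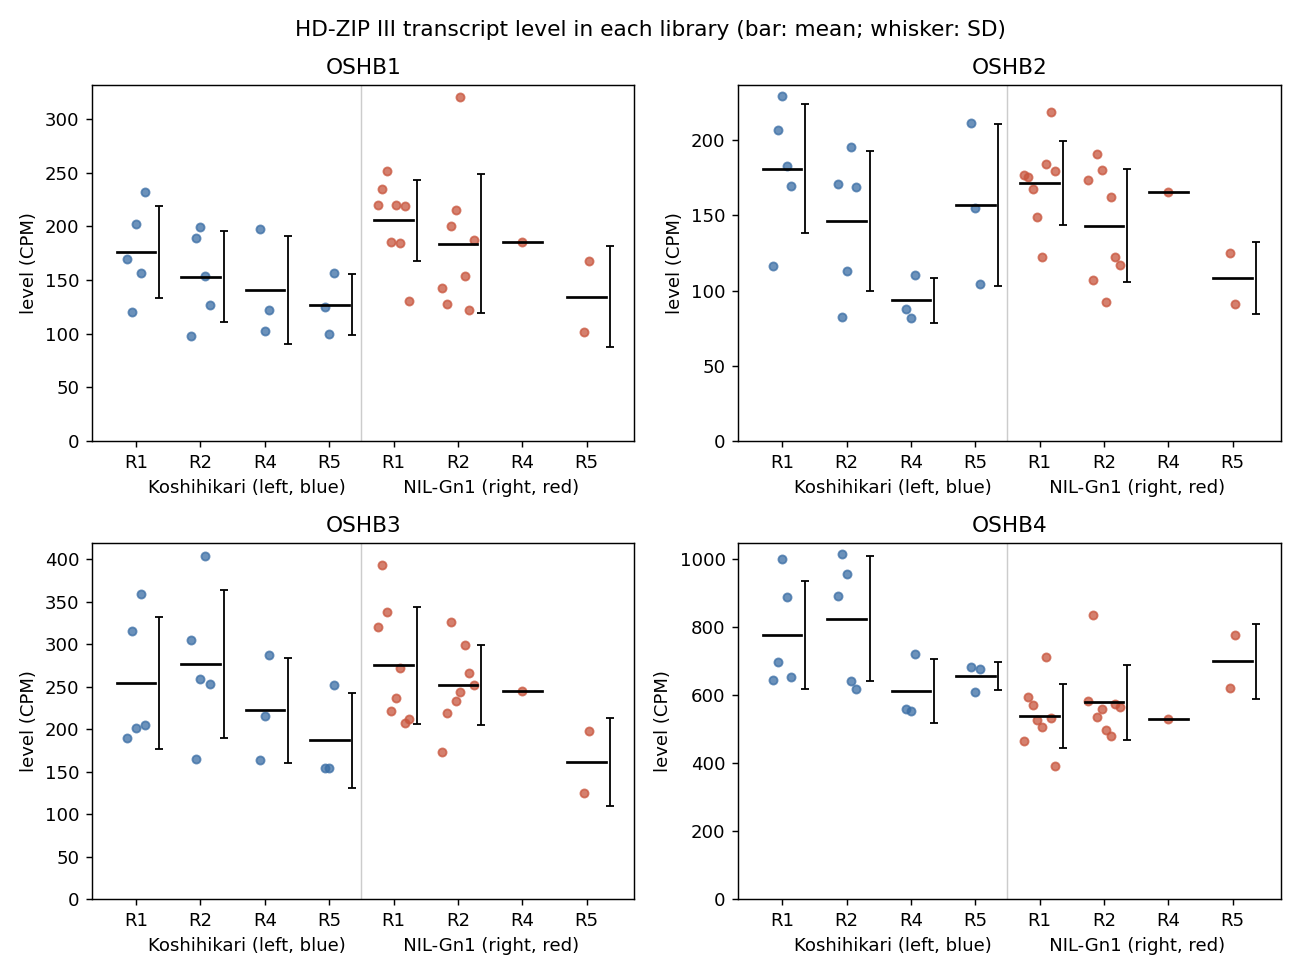
Level of each HD-ZIP III gene (CPM, y axes starting at 0) in every library of the 8 groups (x axis, Koshihikari left and NIL-Gn1 right), with a bar at the group mean and whiskers of 1 SD. The OSHB4 means lie lower in NIL-Gn1 than in Koshihikari at R1 and R2, where its clouds overlap in part and those of the other 3 genes overlap.

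In the Koshihikari libraries from R1, in replicate order, OSHB4 was at 645, 698, 999.7, 889 and 652 CPM. Those from R2 were at 892, 1015, 955, 641 and 618 CPM. In NIL-Gn1 the 8 libraries from R1 ran from 392 to 711 CPM with a median of 530.5, and the 8 from R2 from 478 to 836 with a median of 562. For OSHB4 2 of 16 NIL-Gn1 libraries reached the lowest Koshihikari library, 1 at each code. Of the Koshihikari libraries 0 of 10 fell below the NIL-Gn1 median of 548 CPM. The lines still overlapped in part at both codes. At R1 the Koshihikari libraries at 645, 652 and 698 CPM lay below the highest of NIL-Gn1 (711), and at R2 those at 618 and 641 lay below 836.

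At R4 the OSHB4 level was 559, 554 and 719 CPM in the Koshihikari libraries and 529 in the single NIL-Gn1 library. At R5 it was 683, 609 and 678 CPM in Koshihikari and 620.5 and 777 in NIL-Gn1. At R5 the 2 lines overlapped, and at R4 the lone NIL-Gn1 library lay just under the lowest Koshihikari library. A lone library can easily lie outside a few others by chance, so its place at R4 does not show a line difference. The order of OSHB4 group means was Koshihikari R2 (824 ± 183 CPM, SD, n = 5), Koshihikari R1 (777 ± 159, n = 5), NIL-Gn1 R5 (699 ± 111, n = 2), Koshihikari R5 (657 ± 41.5, n = 3), Koshihikari R4 (611 ± 94.0, n = 3), NIL-Gn1 R2 (578 ± 110.3, n = 8), NIL-Gn1 R1 (537 ± 94.1, n = 8) and NIL-Gn1 R4 (529, n = 1). None of the 7 steps between neighbours in that order exceeded the larger SD, and the highest mean was 1.56 times the lowest.

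OSHB3, the second most abundant, had Koshihikari levels of 190.3, 316, 202, 359.7 and 205 CPM at R1 and 305, 165, 259, 404 and 253 at R2. At R4 its Koshihikari libraries were at 164, 215 and 288 CPM, and at R5 at 154, 155 and 252. In NIL-Gn1 it ran from 207 to 394 CPM at R1 (median 254) and from 174 to 326 at R2 (median 248), with 245 at R4 and 125 and 198 at R5. The lines overlapped at every code. The highest group mean was 277 ± 87.2 CPM in Koshihikari R2 and the lowest 162 ± 51.5 in NIL-Gn1 R5, 1.72 times apart, with no step between neighbours beyond the larger SD.

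OSHB1 was at 169, 119.9, 202, 156 and 232 CPM in Koshihikari R1 and at 97.7, 189, 199.6, 153 and 126 in R2. Its Koshihikari libraries read 197, 103 and 122 CPM at R4 and 125, 99.6 and 156 at R5. In NIL-Gn1 OSHB1 ran from 131 to 251 CPM at R1 (median 219) and from 122 to 320.1 at R2 (median 170.3), and stood at 186 at R4 and 101 and 168 at R5. The lines again overlapped at every code. Its group means spanned 206 ± 37.8 CPM (NIL-Gn1 R1) to 127 ± 28.4 (Koshihikari R5), a ratio of 1.62, and 0 of 7 neighbouring steps exceeded the larger SD.

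OSHB2 was at 116, 207, 229, 183 and 169.6 CPM in Koshihikari R1 and at 171, 82.6, 113, 195 and 169 in R2. Its level was 87.7, 82.0 and 111 CPM in Koshihikari R4 and 212, 155 and 104 in R5. NIL-Gn1 libraries held 122 to 219 CPM at R1 (median 177), 92.6 to 191 at R2 (median 142), 166 at R4, and 125 and 91.4 at R5. Only at R4 did the lines not overlap for OSHB2, with the lone NIL-Gn1 library above all 3 of Koshihikari. Those Koshihikari libraries held 8 to 10 OSHB2 UMIs each. A lone library can easily fall outside the range of 3 others by chance, so this separation does not show a line difference. The group means of OSHB2 had the widest ratio of the 4 genes, 1.94. They ran from 181 ± 42.8 CPM in Koshihikari R1 to 93.5 ± 15.2 in Koshihikari R4, which rested on 26 UMIs. Again 0 of 7 neighbouring steps exceeded the larger SD.

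The first comparison asked whether the HD-ZIP III genes differ between the lines at the same tissue code. Over R1 and R2 together OSHB4 fell in NIL-Gn1, and OSHB1, OSHB2 and OSHB3 did not pass the test. OSHB4 averaged 800 ± 164 CPM in the 10 Koshihikari libraries (937 UMIs) and 558 ± 101 in the 16 of NIL-Gn1 (1494 UMIs). The log2 fold change, NIL-Gn1 against Koshihikari, was -0.52 (SE 0.10, 95% interval -0.72 to -0.33), a level 1.44-fold lower, with an adjusted p of 0.000244 in edgeR's quasi-likelihood test with Benjamini-Hochberg adjustment. In this comparison 2.32% of tested loci were called at an adjusted p under 0.05, and OSHB4 ranked 21 of 7406 by p. Without the 3 Koshihikari R2 libraries that stood apart the difference was -0.65 (edgeR adjusted p = 2.68e-05).

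The other 3 genes had log2 fold changes over R1 and R2 near 0. OSHB1 was at 0.20 (95% interval -0.12 to 0.51, edgeR adjusted p = 0.619), OSHB2 at -0.03 (-0.36 to 0.30, adjusted p = 0.959) and OSHB3 at 0.00 (-0.27 to 0.28, adjusted p = 0.999). Without the 3 Koshihikari R2 libraries that stood apart these were 0.04, 0.20 and 0.15, none of them called. The sign of OSHB2 and of OSHB3 also turned with the normalization, filter or tool. The intervals of all 3 lie above the estimate for OSHB4, but differences between genes in their line effect were not tested. The median over the 4 genes was -0.01, beside 0.02 over all tested loci.

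**Figure D2:**
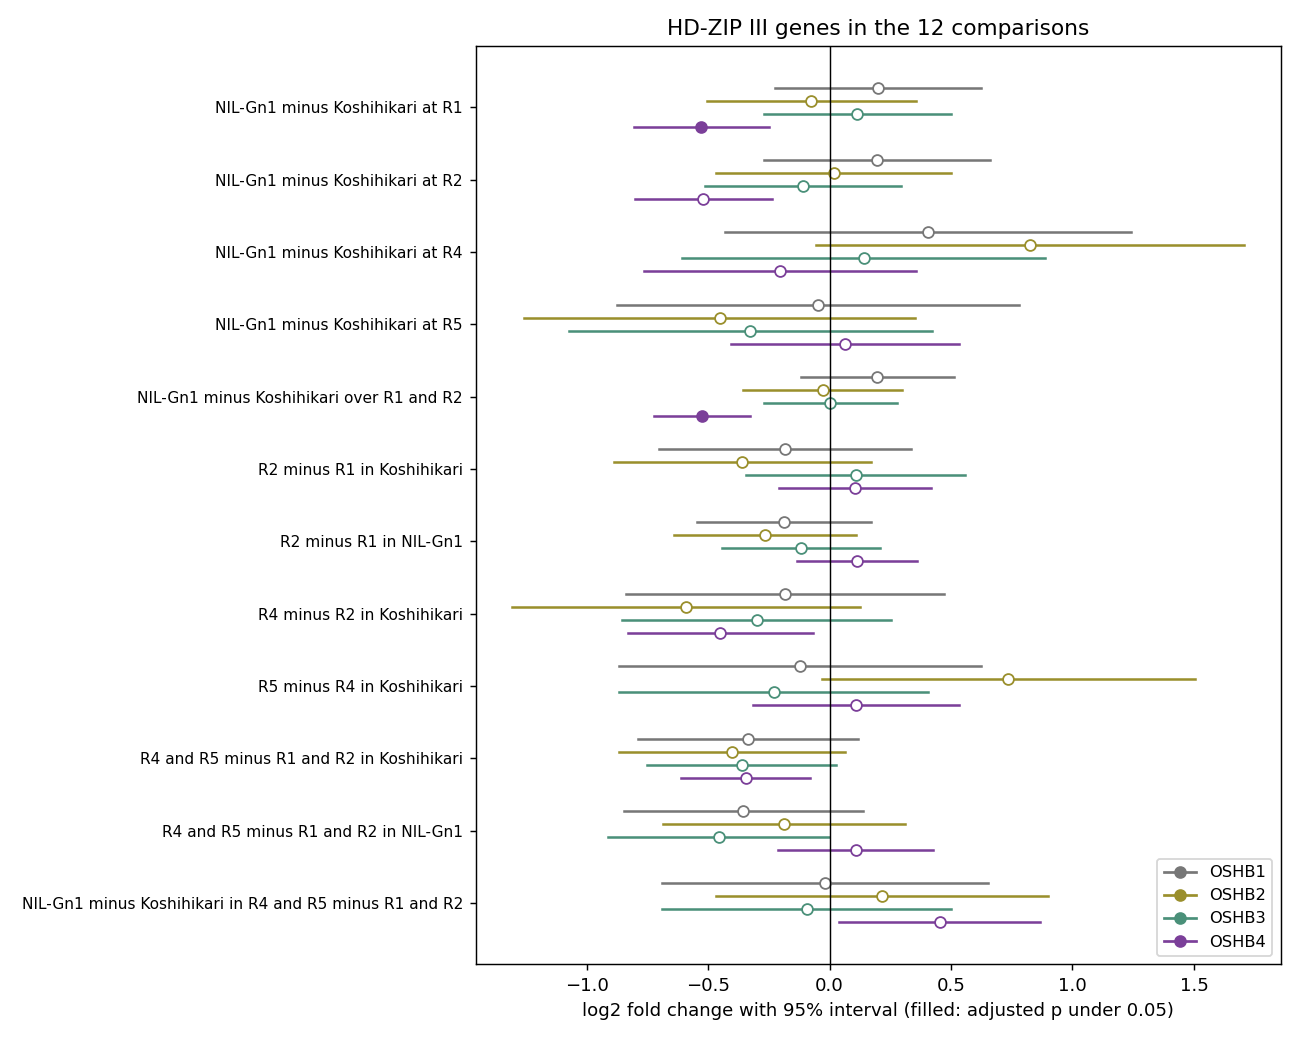
Log2 fold change with its 95% interval (x axis) of the 4 HD-ZIP III genes in each of the 12 comparisons (y axis), from edgeR over all tested loci, with filled points for an adjusted p under 0.05. The filled points are OSHB4 at R1 (-0.53) and over R1 and R2 (-0.52), and OSHB4 has the shortest interval of the 4 genes in each comparison.

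Within single codes the OSHB4 difference was of the same size but near the threshold. At R1 it was -0.53 (SE 0.141, 95% interval -0.81 to -0.25, edgeR adjusted p = 0.0432), where 0.675% of tested loci were called. At R2 it was -0.52 (SE 0.143, 95% interval -0.80 to -0.24) and missed the threshold, with an edgeR adjusted p of 0.0575, where 0.5% of loci were called. OSHB1, OSHB2 and OSHB3 had adjusted p-values of at least 0.794 at R1 and 0.845 at R2. At R2 their log2 fold changes were 0.20, 0.02 and -0.11, and -0.10, 0.48 and 0.19 without the 3 Koshihikari libraries that stood apart, again not called.

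The R1 call of OSHB4 did not hold without Koshihikari R1 replicate 3 (-0.43, adjusted p = 0.235) or replicate 4 (-0.47, adjusted p = 0.179). It was also lost without NIL-Gn1 R1 replicate 1, 3, 4, 5, 7 or 8, with edgeR adjusted p-values of 0.0784, 0.051, 0.0626, 0.0686, 0.0592 and 0.0921. At R2 OSHB4 became a call without Koshihikari R2 replicate 4 (-0.57, adjusted p = 0.0412), replicate 5 (-0.60, adjusted p = 0.026) or NIL-Gn1 R2 replicate 2 (-0.61, adjusted p = 0.0221), and without the 3 Koshihikari libraries that stood apart (-0.76, adjusted p = 0.0155). By contrast, the difference over both codes passed the threshold in all 35 alternative fits, from -0.65 to -0.45.

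At R4 and R5 none of the 4 genes was called between the lines, where 0.149% and 0.351% of tested loci were. OSHB4 differed by -0.20 on the log2 scale at R4 (edgeR adjusted p = 0.92) and by 0.06 at R5 (adjusted p = 0.965). The widest difference was that of OSHB2 at R4, 0.83, with an unadjusted p of 0.0658 and an adjusted p of 0.703 in edgeR. The R4 values compare 3 libraries with 1, whose spread is assumed to be that of the other groups, so only large differences were detectable there.

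The share of OSHB4 among the UMIs of the 4 genes, which needs no scaling between libraries, was lower in NIL-Gn1 as well. It was 57.1% ± 6.83 (SD, n = 10) in Koshihikari at R1 and R2, with libraries from 46.0% to 69.9%, and 47.5% ± 6.36 (n = 16) in NIL-Gn1, from 39.3% to 64.8%. At R1 alone the shares were 55.7% ± 3.97 (n = 5) and 45.1% ± 4.17 (n = 8), and at R2 58.5% ± 9.20 (n = 5) and 49.9% ± 7.5 (n = 8). The lines overlapped in this share at both codes. Koshihikari R2 replicates 2 and 3, which remain when the libraries that stood apart are left out, were at 69.9% and 62.5%. At R4 the share was 57.2% ± 1.51 (n = 3) in Koshihikari and 47.0% in the single NIL-Gn1 library, and at R5 it was 58.3% ± 1.43 (n = 3) and 63.4% ± 0.59 (n = 2), so the lower share of NIL-Gn1 was not seen at R5. The summed level of the 4 genes was 1388 ± 218 and 1401 ± 139 CPM in Koshihikari R1 and R2, against 1190.0 ± 163 and 1157 ± 80.8 in NIL-Gn1.

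**Figure D3:**
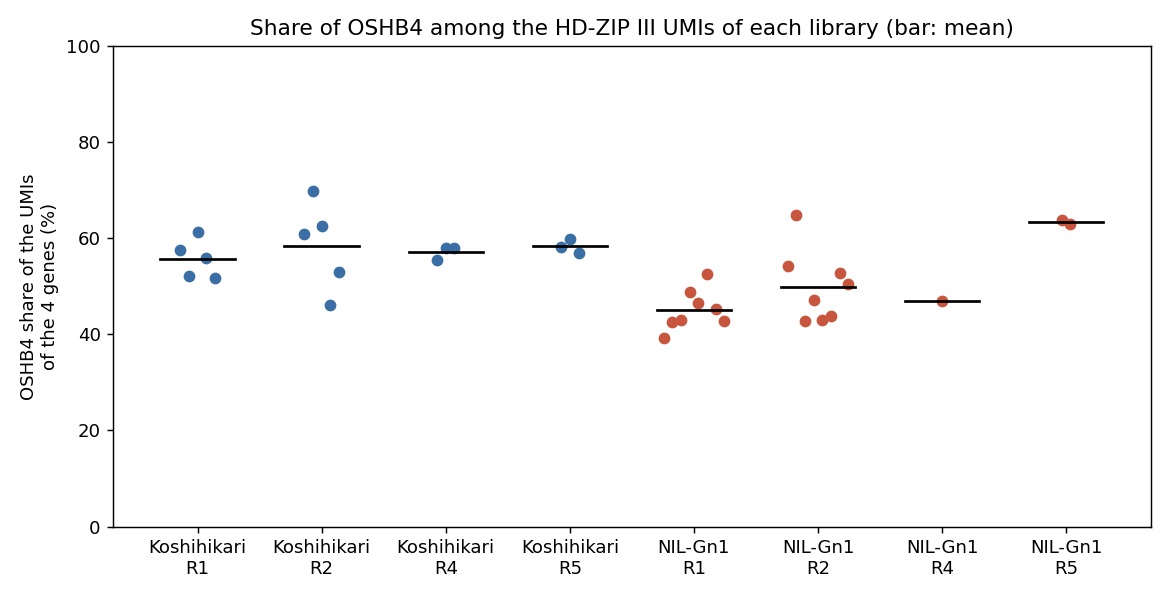
Share of OSHB4 among the UMIs of the 4 HD-ZIP III genes (y axis, percent) in each library of the 8 groups (x axis), with a bar at the group mean. At R1 the Koshihikari mean was 55.7% and the NIL-Gn1 mean 45.1%, and the NIL-Gn1 libraries at R5 stood at 63.0% and 63.8%.

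The genes listed around the HD-ZIP III pathway were read against the 2.32% of all tested loci called over R1 and R2, a share at which lists this short would hold few calls or none. Of the small RNA pathway, whose ARGONAUTE and DICER-LIKE proteins make or use microRNAs, 0 of 8 tested genes were called, and of the organ polarity genes 0 of 10. Of the meristem genes 0 of 6 were called, and of the photosynthesis genes, taken as a sign of green leaf tissue, 0 of 2. Of the vascular genes 1 of 2 was called: OsPIN1b, an auxin efflux carrier, rose by 0.89 on the log2 scale in NIL-Gn1 (SE 0.24, edgeR adjusted p = 0.0232). The other, OsARF11, had a negative estimate and was not called. OsARF11 averaged 165 ± 40.7 and 83.7 ± 36.5 CPM in Koshihikari R1 and R2, against 91.6 ± 23.9 and 103 ± 29.5 in NIL-Gn1. OsPIN1b averaged 99.7 ± 38.5 and 43.2 ± 26.3 CPM in Koshihikari R1 and R2, against 128 ± 39.9 and 122 ± 44.9 in NIL-Gn1. Its call was lost without Koshihikari R1 replicate 5 (adjusted p = 0.0803), without Koshihikari R2 replicate 4 (adjusted p = 0.0587) and without the 3 libraries that stood apart (adjusted p = 0.223).

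Beside the OSHB4 difference, the ranges of the marker sums over R1 and R2 overlapped between lines. The 8 meristem genes summed to 1209 to 1911 CPM per Koshihikari library and 1208 to 1987 per NIL-Gn1 library. The 7 vascular genes summed to 140.2 to 358 and 201 to 368 CPM, the 4 photosynthesis genes to 129.8 to 319 and 59.1 to 522, and the 8 floral organ genes to 0 to 52.9 and 16.9 to 92.1. By code the vascular sum averaged 315 CPM (205 to 358) in Koshihikari and 268 (201 to 368) in NIL-Gn1 at R1, and 174 (140.2 to 239) and 279 (230.3 to 327) at R2, so its order between lines differed between the codes. Their part in the OSHB4 difference was not tested. In bulk tissue fewer cells of a type and less RNA per cell cannot be told apart.

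Both OSHB1 and OSHB4 lie on chromosome 3, so the loci beside each member were looked at for the same line difference. Of the 10 tested loci on either side by locus name, 0 of 20 were called over R1 and R2 beside OSHB1, OSHB2 and OSHB3, and 1 of 20 beside OSHB4. The median log2 fold change of the 20 neighbours of OSHB4 was 0.05, and their lowest was -0.79. On chromosome 3 as a whole 28 of 1082 tested loci were called.

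A further class III gene, OSHB5 (LOC_Os01g10320, HOX29 in RefSeq), was hardly detected. Only 14 UMIs were found, spread over 10 libraries with at most 2 in any, and was not tested. Its level over the pooled UMIs was 2.87 CPM, against 153 for OSHB2 on the same pooled scale, where 3 counts equal 0.615 CPM. Of the 14 UMIs, 7 were from Koshihikari and 5 from NIL-Gn1 at R1 and R2, and 2 and 0 at R4 and R5. A line difference of OSHB5 was not detectable at this depth. By locus name it is the gene of the class nearest to OsCKX2, the cytokinin oxidase gene known as Gn1a, from which it is 20 loci away.

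The next comparison followed the 4 genes across tissue codes within a line. From R1 to R2 none was called in either line. In Koshihikari the log2 changes were -0.18 for OSHB1, -0.36 for OSHB2, 0.11 for OSHB3 and 0.10 for OSHB4, and in NIL-Gn1 -0.19, -0.27, -0.12 and 0.11 in the same order. OSHB4 had nearly the same small value in both lines, and its interval included 0 in each. Without the 3 Koshihikari R2 libraries the Koshihikari values were 0.11, -0.82, -0.19 and 0.34, none of them called (edgeR adjusted p = 0.999 each). With edgeR, 0% of tested loci were called in Koshihikari (439 at an unadjusted p under 0.05, and 0 with DESeq2) and 0.081% in NIL-Gn1, so the background was close to nil as well.

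From R2 to R4 in Koshihikari all 4 estimates were negative and none was called, where 6% of tested loci were. OSHB2 changed by -0.59 on the log2 scale (edgeR adjusted p = 0.363), OSHB4 by -0.45 (adjusted p = 0.153), OSHB3 by -0.30 (adjusted p = 0.594) and OSHB1 by -0.18 (adjusted p = 0.811). Without the 3 Koshihikari R2 libraries that stood apart OSHB2 was at -0.13 (adjusted p = 0.926), OSHB4 at -0.68 (0.0573), OSHB3 at 0.01 (0.996) and OSHB1 at -0.48 (0.571). From R4 to R5 none of the 4 genes was called and 0% of tested loci were with edgeR, with 536 at an unadjusted p under 0.05, 1 locus called with DESeq2 and 2 with limma-voom. OSHB2 had the largest estimate there, 0.74, with an unadjusted p of 0.06.

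With the mean of R4 and R5 set against the mean of R1 and R2, each group at equal weight, all 4 genes had negative estimates in Koshihikari. None passed the test. OSHB4 went from 800 ± 164 CPM (n = 10) to 634 ± 69.7 (n = 6), a log2 change of -0.34 (SE 0.134, unadjusted p = 0.0112, edgeR adjusted p = 0.0627). OSHB3 went from 266 ± 78.8 to 205 ± 56.4 CPM, OSHB2 from 164 ± 46.0 to 125 ± 49.6 and OSHB1 from 165 ± 42.0 to 134 ± 37.2. Their log2 changes were -0.36 (adjusted p = 0.204), -0.40 (adjusted p = 0.246) and -0.34 (adjusted p = 0.33). The median of the 4 was -0.35, beside -0.06 over all tested loci, of which 16.5% were called. OSHB4 became a call in 8 of 25 alternative fits, among them the fits without Koshihikari R1 replicate 1 (adjusted p = 0.0481), R2 replicate 5 (0.0321), R4 replicate 4 (0.0434) and the 3 libraries that stood apart (-0.45, 0.0173). Without those 3 libraries OSHB1, OSHB2 and OSHB3 were at -0.47, -0.16 and -0.20 and were not called.

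In NIL-Gn1 OSHB1, OSHB2 and OSHB3 again had negative estimates between these codes, and OSHB4 a positive one. Averaged over libraries, OSHB4 stood at 558 ± 101 CPM (n = 16) at R1 and R2 and 642 ± 125 (n = 3) at R4 and R5. The test gave each group equal weight, so the 1 library of R4 weighed as much as the 2 of R5. Its log2 change for OSHB4 was 0.11 (edgeR adjusted p = 0.823). OSHB3 changed by -0.46 (unadjusted p = 0.0483, adjusted p = 0.323), OSHB1 by -0.35 (adjusted p = 0.549) and OSHB2 by -0.19 (adjusted p = 0.799). Of all tested loci 3.93% were called. The test of the difference between the lines in this change gave 0.45 for OSHB4 (SE 0.209, 95% interval 0.04 to 0.87, unadjusted p = 0.0317, edgeR adjusted p = 0.337), where 0.311% of loci were called. It did not pass, and neither did OSHB1 (-0.02), OSHB2 (0.22) or OSHB3 (-0.10). Without the 3 Koshihikari R2 libraries that stood apart OSHB4 was at 0.54 (adjusted p = 0.23) and the others at 0.10, -0.04 and -0.28.

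**Figure D4:**
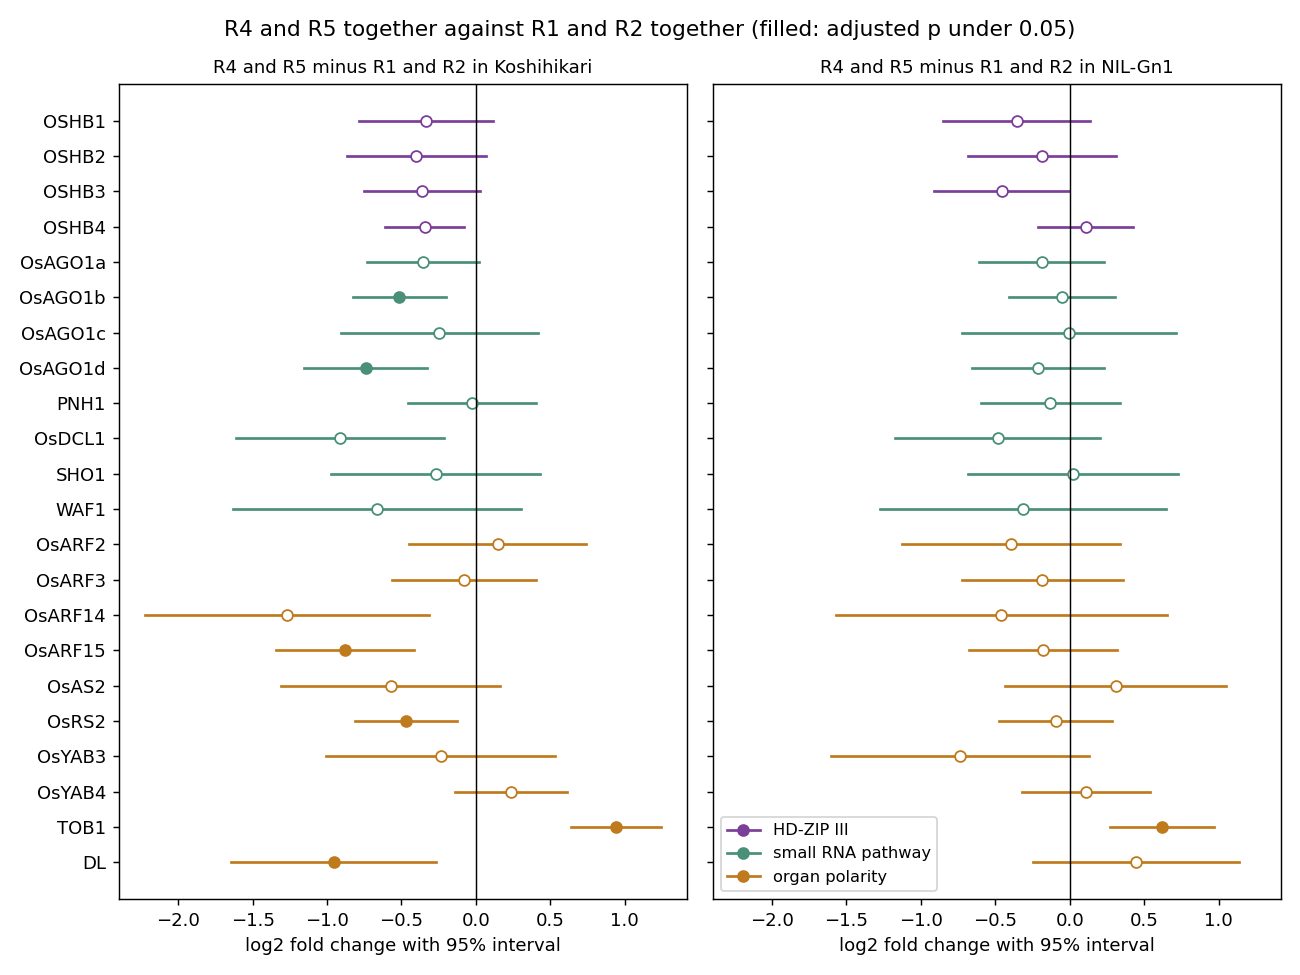
Log2 fold change with its 95% interval (x axes) between R4 and R5 together and R1 and R2 together, in Koshihikari (left) and NIL-Gn1 (right), for the HD-ZIP III, small RNA pathway and organ polarity genes tested (y axis), with filled points for an edgeR adjusted p under 0.05. In Koshihikari OSHB1 to OSHB4 lie between -0.40 and -0.34, and in NIL-Gn1 OSHB4 lies at 0.11.

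Some listed genes of the pathway changed between these codes in Koshihikari, where 16.5% of all tested loci were called. Of 8 small RNA pathway genes 2 fell and 0 rose: OsAGO1d by -0.74 on the log2 scale (edgeR adjusted p = 0.00686) and OsAGO1b by -0.52 (adjusted p = 0.0137), both ARGONAUTE1 genes, whose proteins carry microRNAs. Of 10 tested genes on the organ polarity list, which includes YABBY genes, 3 fell and 1 rose. The auxin response factor gene OsARF15 fell by 0.88 (adjusted p = 0.00367), the MYB gene OsRS2 by 0.47 (adjusted p = 0.0463) and the YABBY gene DL by 0.95 (adjusted p = 0.0486). The YABBY gene TOB1, which acts in spikelet development, instead rose by 0.94 (adjusted p = 6.68e-07). The medians of these lists in Koshihikari were -0.43 and -0.35, near that of the 4 HD-ZIP III genes (-0.35). Negative medians were also found there for the meristem list (-0.635, 6 genes tested) and the vascular list (-1.04, 2 tested). That of the photosynthesis list was positive (2.105, 2 tested). In NIL-Gn1 the small RNA and organ polarity medians were -0.16 and -0.14, beside -0.27 for the HD-ZIP III genes. OsAGO1b, OsRS2 and DL fell outside the rule for named genes and were named after their values were seen. OsRS2 lost its call in 16 of 25 alternative fits (adjusted p up to 0.161) and DL in 11 (up to 0.122). OsAGO1d lost it without Koshihikari R2 replicate 3 (adjusted p = 0.0626) or R5 replicate 2 (0.0581), and OsAGO1b without R4 replicate 4 (0.0607), R5 replicate 2 (0.129) or the 3 libraries that stood apart (0.137).

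In the vascular and marker lists, single genes changed. OsARF11, an auxin response factor gene, fell by 1.22 in Koshihikari (adjusted p = 0.0035), 1 of 2 vascular genes tested, and was at an adjusted p of 0.0556 without the 3 libraries that stood apart. Of 6 meristem genes 3 fell, among them TAW1, which holds back the switch to spikelet formation, by -2.54 (adjusted p = 1.41e-26), and the KNOX gene OSH15 by -0.94 (adjusted p = 0.00979). The third was OSH6, also a KNOX gene and outside the naming rule, at -0.73 (adjusted p = 0.0342), whose call was lost in 13 of 25 alternative fits (adjusted p up to 0.129). The photosynthesis genes LHCB1 and PsbO rose, by 1.83 (adjusted p = 5.19e-05) and 2.38 (adjusted p = 0.00786), 2 of 2 tested, and PsbO lost its call without Koshihikari R4 replicate 4 (adjusted p = 0.18). In Koshihikari the photosynthesis list summed to 438 to 1312 CPM at R4 and R5 and to 129.8 to 319 at R1 and R2, and the meristem list to 642 to 825 and 1209 to 1911, without overlap in either. TAW1 alone averaged 934 and 888 CPM in Koshihikari R1 and R2 and 167 and 146 in R4 and R5, and OSH1 averaged 288 and 252, then 195 and 263. In NIL-Gn1 both sums overlapped between the codes. The photosynthesis list summed there to 244 to 638 CPM at R4 and R5 and 59.1 to 522 at R1 and R2. The meristem list summed there to 996 to 1295 and 1208 to 1987. The part of these lists in the HD-ZIP III estimates of either line was not tested.

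From R2 to R4 in Koshihikari TAW1 fell by 2.42 (adjusted p = 1.76e-14), and LHCB1 rose by 1.47 (adjusted p = 0.0411). FON1, a CLAVATA1-like receptor gene, was called at 2.98 (adjusted p = 0.0466) on few counts, 3 UMIs in the 5 libraries of R2 and 16 at R4, of which 12 were in replicate 3 and 0 in replicate 4. Its alternative values ran from 1.94 to 3.59. Without the 3 libraries that stood apart TAW1 was at -2.59 (adjusted p = 2.41e-14), LHCB1 at 1.41 (0.176) and FON1 at 3.59 (0.115). In NIL-Gn1, R4 and R5 against R1 and R2, TAW1 fell by 0.80 (adjusted p = 0.000589), OsARF11 by 1.41 (adjusted p = 0.0131) and OsPIN1b by 1.23 (adjusted p = 0.0435), and TOB1 rose by 0.62 (adjusted p = 0.0213). Of the small RNA genes 0 of 8 were called there, where 3.93% of all tested loci were. TAW1 was higher in NIL-Gn1 at R4 (1.41, adjusted p = 0.0165) and R5 (1.68, adjusted p = 0.000135), and its change between codes differed between the lines by 1.73 (adjusted p = 1.32e-07). Of all tested loci 0.149% were called between lines at R4, 0.351% at R5 and 0.311% in the difference of the change. NIL-Gn1 has 1 library at R4. There TAW1 lost its call in 3 of 11 alternative fits, among them those without Koshihikari replicate 2 (adjusted p = 0.207) or 3 (0.321). From R2 to R4 LHCB1 lost its call in 9 of 17 alternative fits and FON1 in 9 of 14. In NIL-Gn1 the calls of TAW1, OsARF11 and OsPIN1b were lost without R5 replicate 1 (adjusted p = 0.0532, 0.298 and 0.478) and that of TOB1 without R5 replicate 2 (0.177). OsPIN1b lost its call there in 9 of 26 fits in all.

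Within groups the 4 genes varied by little more than counting noise allows for OSHB2 and by more for OSHB4. The chi-square of the counts around their group means, per degree of freedom and on 27 degrees, was 1.14 for OSHB2, 1.73 for OSHB1, 2.15 for OSHB3 and 2.77 for OSHB4, where 1 is counting noise alone. The fitted biological coefficient of variation was 15.9% for OSHB4, the lowest of the 4, and 17.2% to 18.4% for the others, against 21.1% in common over all tested loci. OSHB4 was the gene with the most UMIs and hence the smallest counting error.

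The 4 genes did not follow each other closely from library to library. Pearson's r of log2 CPM over the 35 libraries, which differ in line, code and depth, ran from -0.18 (OSHB1 and OSHB4) to 0.31 (OSHB2 and OSHB3). Counting noise, which made up most of the within-group spread of OSHB2 (chi-square per degree of freedom 1.14), lowers such values. A low r therefore does not show that the genes vary apart. Among 3490 loci with a mean of at least 10 UMIs, other members ranked between 218 and 2777 in likeness to a given member. The loci most like OSHB1 were OsARF15 (LOC_Os05g48870, r = 0.64), an organ polarity gene of the list, and LOC_Os05g34150 (r = 0.64). With the group means removed these were 0.67 and 0.58.

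For OSHB4 the most alike were LOC_Os03g63970 (r = 0.64) and LOC_Os01g03360 (r = 0.61), which fell to 0.46 and 0.33 within groups. For OSHB2 they were LOC_Os02g57820 and LOC_Os03g18270 (both r = 0.59, and 0.51 and 0.45 within groups). For OSHB3 they were LOC_Os04g05070 (r = 0.61, within groups 0.56) and LOC_Os09g22280 (r = 0.54, within groups 0.41). These values are the highest of many and describe these 35 libraries only.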

How the data were processed

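Values in the authors' deposited table are unnormalized UMI counts of 55801 loci in 35 libraries. Bowtie2 and Subread 2.1 were used, per the submitters' processing notes. What each did, the build, the annotation and how reads shared by similar genes were counted are not given in the sources used here. Columns were matched to samples by their titles, and libraries grouped by line and tissue code.

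All libraries entered a single model with 1 coefficient per group, fitted by edgeR 4.0.16 under R 4.3.3 with TMM factors, filterByExpr and the robust quasi-likelihood F-test. The filter kept 7406 loci with 86.7% of UMIs. Comparisons over more than 1 code gave each group equal weight, whatever its number of libraries. P-values were adjusted by Benjamini-Hochberg over these loci within each comparison. Scaled to all UMIs of a library, 76743 to 375071, 3 counts equal 8.00 to 39.1 CPM, which covers counting error only. On the scale of the levels given, tested loci with TMM factors, they equal somewhat more. There 6 UMIs of OSHB2 in NIL-Gn1 R5 replicate 2 were 91.4 CPM. The steps were tested on simulated data. Counts of 83 library pairs within groups differed by a chi-square of 1.37 or more per degree of freedom, so none was counted as a duplicate.

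The rule for the 4 members uses no measured value, but they, the 54 genes listed and the comparisons were picked for study with earlier results of these data known. Of the 54, 44 had the same chromosome in RefSeq and 10 had no entry by symbol. Named genes were the 4 members, up to 8 listed genes per comparison with an adjusted p under 0.05, OSH1 and RFL by level, and the 2 loci most like each member in log2 CPM (prior count 2). Libraries with the same replicate number did not deviate together.

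As alternatives, normalization was by RLE or upper quartile factors, and the filter was dropped or set to a mean of 10 counts. Further ones were the replicate number as a block, DESeq2 1.42.0, limma-voom (limma 3.58.1) with quality weights, only the groups compared, and leaving out each library. A fit without Koshihikari R2 replicates 1, 4 and 5 was added after seeing the data. Plots were made with matplotlib 3.10.9.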

Additional observations from a re-analysis of the deposited data

Results flagged for a closer look

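Of 16 combinations of an HD-ZIP III gene and a group of at least 5 libraries, 2 had a library far from the others of its group by Dixon's test, which flags about 1 in 20 groups by chance. OSHB4 was at 835.65 CPM in NIL-Gn1 R2 replicate 2, the highest of its group, where the next library was at 582.04, and the gap was 0.710 of the group's range. Without that library the line difference of OSHB4 at R2 was -0.61 (edgeR adjusted p = 0.0221), and over R1 and R2 it was -0.57 (adjusted p = 6.92e-05). OSHB1 was at 320.06 CPM in NIL-Gn1 R2 replicate 6, where the next library was at 215.36, and the gap was 0.529 of the range.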

How the results depend on the processing

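Of 1080 alternative values for the 4 genes in 12 comparisons, 990 kept their direction and their side of the threshold, 11 lost a call, 13 gained one and 66 changed sign, none of these 66 in a called value. OSHB4 over R1 and R2 was called in 35 of 35 fits (-0.65 to -0.45, adjusted p from 2.68e-05 to 0.015). Causes were not tested.

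OSHB4 at R1 lost its call, which left 0 of the 4 genes called, with no filter (-0.48, adjusted p = 0.162) and with DESeq2 (-0.53, 0.0581), and ran from -0.60 to -0.43 without each library, with 0 to 1 genes called. At R2 it gained one, for 1 gene called, with the filter at a mean of 10 counts (-0.53, 0.0411) and without the 3 Koshihikari R2 libraries that stood apart (-0.76, 0.0155), and ran from -0.61 to -0.42 without each library. For R4 and R5 against R1 and R2 in Koshihikari, OSHB4 was called with upper quartile factors (-0.39, 0.03), the filter at 10 counts (-0.36, 0.0381), only the groups compared (-0.37, 0.0357) and without the 3 libraries (-0.45, 0.0173), and ran from -0.41 to -0.29 without each library.

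The replicate numbers did not pair the libraries: over 27 same-numbered pairs the correlation of deviations was -0.041 to 0.079, and a library correlated best with its own number in 4. With the replicate block OSHB4 was at -0.49 at R1 (adjusted p = 0.106), -0.46 over R1 and R2 (0.015) and -0.39 for R4 and R5 against R1 and R2 in Koshihikari (0.0354). The block turned OSHB1 at R5 to 0.22, and in the difference between lines OSHB1 to 0.20 and OSHB3 to 0.01.

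Other sign changes were of values that were not called. Without the 3 Koshihikari R2 libraries they were OSHB1 -0.10 and OSHB3 0.19 between lines at R2, OSHB2 0.20 over R1 and R2, OSHB1 0.11 and OSHB3 -0.19 for R2 against R1, OSHB3 0.01 for R4 against R2, and OSHB1 0.10 and OSHB2 -0.04 in the difference between lines. Over R1 and R2 OSHB3 was at -0.01 with RLE, the filter at 10 counts and DESeq2 and at 0.00 with only the groups compared, and OSHB2 at 0.04 with no filter and 0.00 with limma-voom. At R5 OSHB4 was at -0.01 with no filter and OSHB1 at 0.02 with only the groups compared. In the difference between lines OSHB1 was at 0.00 with upper quartile factors and 0.02 with limma-voom.

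Without each library in turn, signs changed within these ranges. Between lines, OSHB2 ran from -0.18 to 0.01 at R1, -0.10 to 0.15 at R2 and -0.09 to 0.04 over both. OSHB3 ran from -0.22 to 0.06 at R2, -0.04 to 0.36 at R4, -0.59 to 0.03 at R5 and -0.06 to 0.10 over R1 and R2. At R5 OSHB1 ran from -0.34 to 0.35 and OSHB4 from -0.08 to 0.21. In Koshihikari OSHB3 ran from -0.06 to 0.28 for R2 against R1, and OSHB1 from -0.50 to 0.01 for R4 against R2 and -0.31 to 0.19 for R5 against R4. In the difference between lines OSHB1 ran from -0.16 to 0.17 and OSHB3 from -0.23 to 0.07.

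Over all loci, calls ranged from 34 to 112 (main 50) between lines at R1, 15 to 53 (37) at R2, 3 to 13 (11) at R4, 4 to 27 (26) at R5 and 100 to 226 (172) over R1 and R2. They ranged from 0 to 28 (6) for R2 against R1 in NIL-Gn1, 201 to 446 (444) for R4 against R2 and 0 to 4 (0) for R5 against R4 in Koshihikari, 92 to 428 (291) for R4 and R5 against R1 and R2 in NIL-Gn1, and 18 to 45 (23) for the difference between lines. NIL-Gn1 R4 has a single library, so leaving it out gave no fit of contrasts with that group.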
